A study of Arabidopsis thaliana and Medicago truncatula and Solanum lycopersicum with 15 samples.

Results

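The 9 genes described here are the core regulators of the root epidermal fate decision in Arabidopsis thaliana: GLABRA2 (GL2, AT1G79840), WEREWOLF (WER, AT5G14750), MYB23 (AT5G40330), TRANSPARENT TESTA GLABRA1 (TTG1, AT5G24520), GLABRA3 (GL3, AT5G41315), ENHANCER OF GLABRA3 (EGL3, AT1G63650), CAPRICE (CPC, AT2G46410), TRIPTYCHON (TRY, AT5G53200) and ENHANCER OF TRY AND CPC1 (ETC1, AT1G01380). They were chosen by their known role, as 9 of 27444 protein-coding genes of the 5 nuclear chromosomes. For each gene a window was taken that holds the gene and 2 kb on both sides of it, because the gene table gives no strand, and every accessible region that shared at least 1 bp with the window was counted. The assay was ATAC-seq, which maps open chromatin by letting the transposase Tn5 insert sequencing adapters where nuclear DNA is reachable, and the deposited data are lists of accessible regions with a start and an end and no score.

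Of the 15 samples of the series, 8 Arabidopsis samples in the Col-0 background were used, with 2 biological replicates in each of 4 groups. Hair cell nuclei carried ADF8p:NTF/ACT2p:BirA, so the nuclear tag was made under the ADF8 promoter, and came from the fully differentiated root zone. Non-hair cell nuclei carried GL2p:NTF/ACT2p:BirA and came from the same zone, so the promoter of one of the 9 genes drives the tag in this group alone. INTACT root tip nuclei carried UBQ10p:NTF/ACT2:BirA, which tags all cells of a root tip cut at 1 cm. Sucrose root tip nuclei came from tips cut at the same length and were sedimented in sucrose as a crude preparation. All INTACT nuclei were captured on streptavidin beads through the biotinylated tag, and 50000 nuclei went into each transposase reaction. The hair and non-hair groups thus share root zone and purification, whereas the epidermal and root tip groups differ in zone, cell type and transgene together.

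In the root epidermis, files of cells either form hairs or stay hairless. In future non-hair cells the R2R3 MYB proteins WER and MYB23 form a complex with the bHLH proteins GL3 and EGL3 and the WD40-repeat protein TTG1, and this complex turns on GL2, a homeodomain leucine zipper (HD-ZIP IV) transcription factor that represses hair formation. The same complex turns on CPC, TRY and ETC1, small single-repeat MYB proteins that can move to the neighbouring cell, compete with WER for the bHLH proteins and so allow hair fate.

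The lists differ in length, which affects every value below. Hair lists held 52373 and 35679 regions on the numbered chromosomes, non-hair lists 52278 and 31212, INTACT tip lists 23288 and 23690, and sucrose tip lists 11702 and 15813. The share of all gene windows with at least 1 region ranged from 49.5% in sucrose tip replicate 1 to 91.9% in hair replicate 1. The lists carry no read counts, so sequencing depth is unknown, and a window without a region is listed at 0, which does not show that its chromatin was closed. In nuclei from a mixed tissue such as the root tip, fewer nuclei of a type and less accessible chromatin per nucleus cannot be told apart.

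All 9 genes had at least 1 region in each of the 4 epidermal lists. In the root tip 5 genes, CPC, TTG1, GL3, TRY and MYB23, had a region in all 4 lists. EGL3 had one in INTACT tip replicate 1 and sucrose tip replicate 1 alone. GL2, WER and ETC1 had no region in any root tip list. Windows with regions in all 4 epidermal lists and in no tip list made up 1925 of the 25147 windows tested, or 7.65%, against 3 of these 9 genes.

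**Figure D1:**
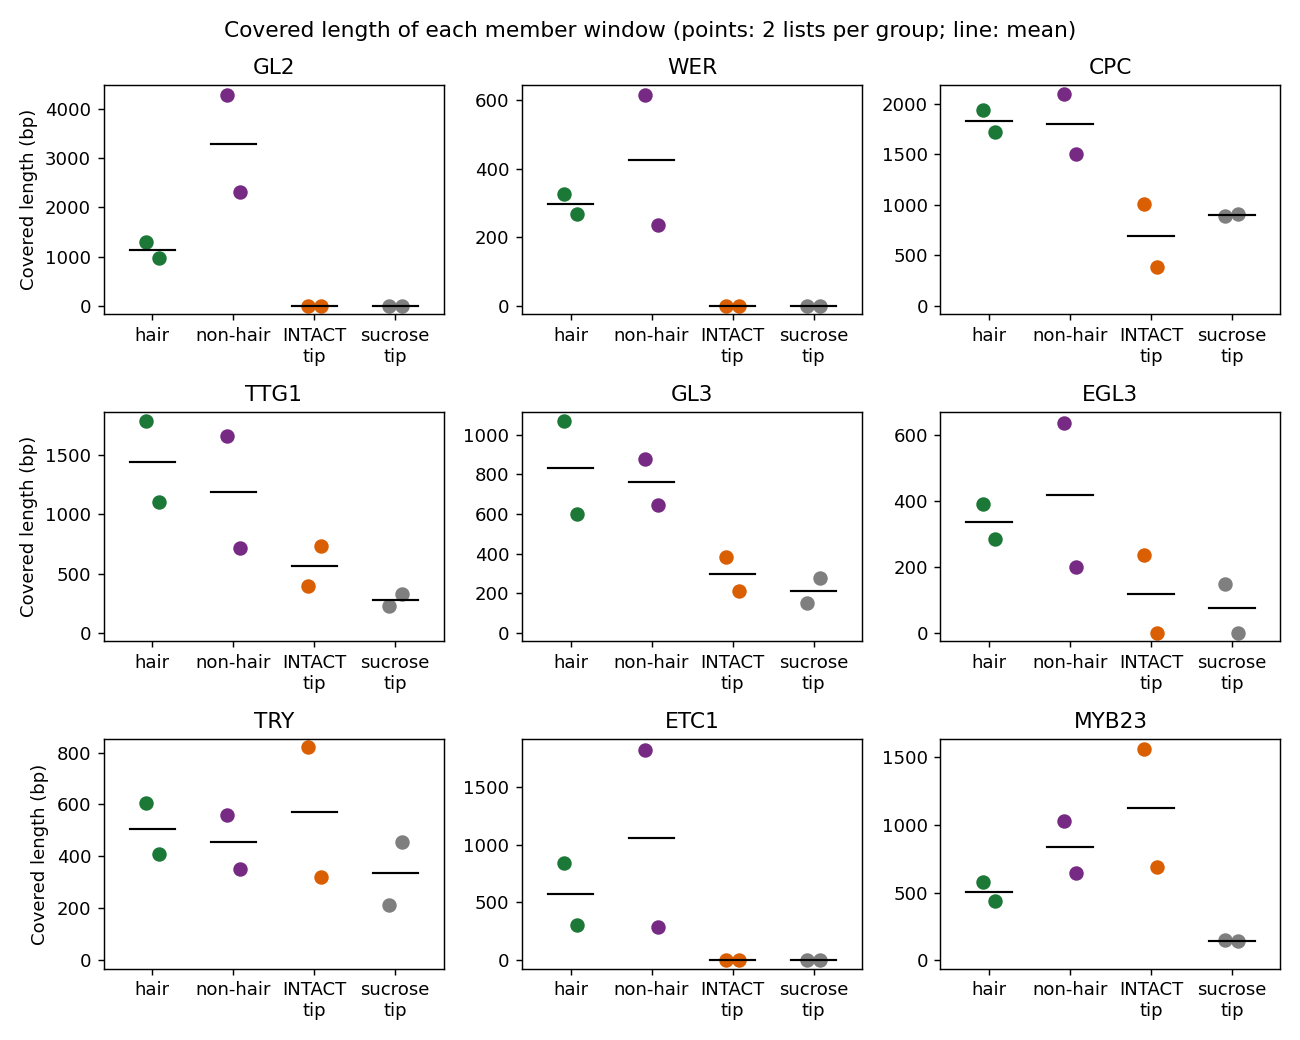
Base pairs of each gene window inside accessible regions (y axis, bp, own scale per gene) in hair, non-hair, INTACT tip and sucrose tip lists; points are the 2 lists of a group and the line is their mean. GL2 reached 4276 and 2314 bp in non-hair lists and 0 in every tip list, whereas MYB23 was highest, at 1563 bp, in an INTACT tip list.

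GL2, the output of the pathway, had the most extended open block of the 9 genes, and it lay in non-hair nuclei. The covered length of its window was 1303 and 981 bp in hair lists, 4276 and 2314 bp in non-hair lists, and 0 bp in all 4 root tip lists. Both non-hair lists lay above both hair lists, and the group means were 1142 ± 228 bp in hair and 3295 ± 1387 bp in non-hair (SD, n = 2 each). The number of regions was 4 and 4 in hair lists and 8 and 4 in non-hair lists, so width rather than number separated the groups.

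The widest GL2 region measured 506 and 443 bp in hair lists and 2603 and 1891 bp in non-hair lists. The non-hair regions ranked 15th widest of 52278 and 19th widest of 31212 in their lists. They belonged to a joined site at chr1:30034391-30037014 (TAIR10, 2624 bp), which began 2565 bp before the low-coordinate end of the gene and ended 58 bp inside it. Of the 2.6 kb next to that end, 664 and 538 bp (25.5% and 20.7%) were covered in hair lists, in short separate regions. In non-hair lists 2544 and 2537 bp (97.8% and 97.6%) of the same span were covered, almost without a gap. The span goes past the 2 kb window and is close to the 2565 bp reach of the joined site. The near-complete non-hair shares therefore follow in part from the choice of span.

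**Figure D2:**
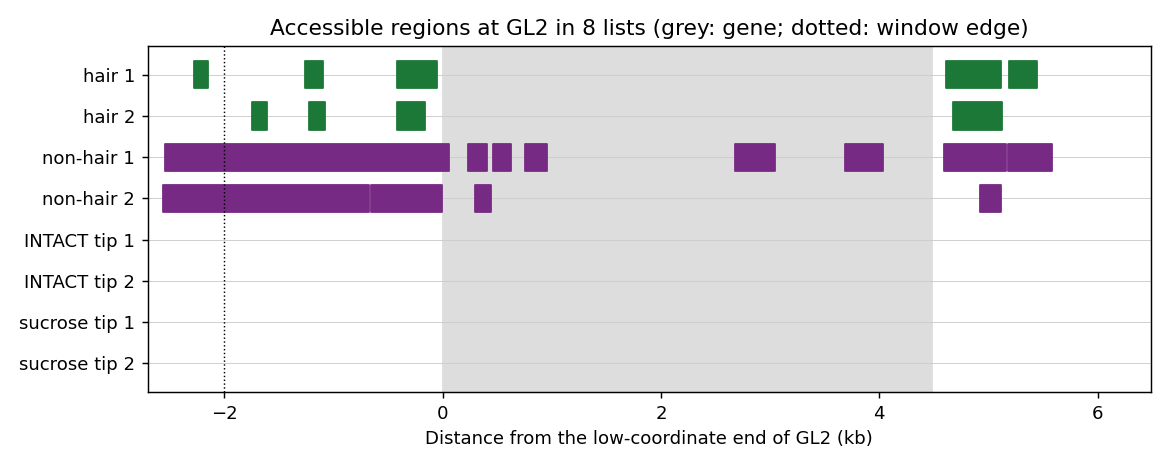
Regions at GL2 in each of the 8 lists, drawn to scale against distance from the low-coordinate end of the gene (x axis, kb); grey marks the gene and the dotted line the edge of the window. The 2 non-hair lists are covered over 97.8% and 97.6% of the 2.6 kb left of the gene, a span about as long as their block. The 2 hair lists hold short regions there, and the tip lists hold none.

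Away from this flank the hair and non-hair lists were separated inside the GL2 gene but not over the gene and its high-coordinate side together. Over the gene and the 2 kb on its high-coordinate side, 766 and 443 bp were covered in hair lists and 2276 and 342 bp in non-hair lists, so the groups overlapped. Inside the gene, hair lists held 0 bp, and non-hair lists 1305 and 152 bp. A site at chr1:30037189-30037401, 233 bp inside the gene, was present in both non-hair lists, with 171 and 152 bp, and in no other list, a pattern shared by 93 of 61830 sites (0.15%). The 152 bp are the commonest and narrowest width of non-hair replicate 2. They are all that this list held inside the gene, so the separation there rests on 1 narrow region in that list.

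The non-hair plants carry a GL2 promoter transgene, and reads from it and from the endogenous locus cannot be told apart in these lists. The gene whose promoter tags the hair nuclei had its widest regions in the hair lists. ADF8, an actin depolymerizing factor expressed in hair cells, had a widest region of 1251 and 1210 bp in hair lists and 396 and 350 bp in non-hair lists, and its tip lists held 243, 0, 0 and 140 bp. Its mean difference, hair minus non-hair, was 857.5 bp, the 80th highest of 27444 windows. UBQ10, the driver in the INTACT tips, had a widest region of 2054 and 2246 bp there and 1882 and 1608 bp in sucrose tips, against 1510 and 1427 bp in hair and 1471 and 1417 bp in non-hair lists. ACT2, whose promoter drives BirA in the hair, non-hair and INTACT tip plants, had a widest region of 918 and 918 bp in hair lists. It measured 1042 and 954 bp in non-hair lists, 1381 and 1572 bp in INTACT tips and 957 and 896 bp in sucrose tips. The part that the transgenes play in the GL2 result was not tested.

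Among all 27444 windows, GL2 had the largest loss in hair relative to non-hair lists, with a mean difference of -2153.0 bp (rank 1 from the lowest). The next window was that of TGA10, at -1229.0 bp. The window after it, at -1159.5 bp, was that of GC5, which shares bases with the GL2 window. On the log2(covered bp + 100) scale the GL2 difference was -1.40 (SE 0.51), below all but 0.1% of the windows tested. In limma with Benjamini-Hochberg adjustment over all windows its adjusted p was 1 (unadjusted p = 0.024), so it did not pass the threshold of 0.05.

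The MYB activators differed from each other. WER had 1 region in each hair list, of 326 and 267 bp, and non-hair lists held 614 bp in 3 regions and 236 bp in 1. The hair and non-hair values overlapped, with group means of 297 ± 42 bp in hair and 425 ± 267 bp in non-hair lists (SD, n = 2 each). The site shared by all 4 epidermal lists, chr5:4761492-4761832, lay 1540 bp from the gene on its low-coordinate side and overlapped the neighbouring carbonic anhydrase gene CA2. No list held a region over the WER gene itself, and the other WER sites were in non-hair replicate 1 alone.

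MYB23, which acts beside WER, covered 576 and 438 bp in hair lists, 1028 and 646 bp in non-hair lists, 1563 and 686 bp in INTACT tips and 150 and 140 bp in sucrose tips. Both non-hair lists again exceeded both hair lists, with means of 507 ± 98 bp in hair and 837 ± 270 bp in non-hair (SD, n = 2 each), and the difference of -0.61 on the log2 scale (SE 0.51) did not pass limma (adjusted p = 1 over all windows). A site that spans the low-coordinate end of the gene, chr5:16127522-16127763, was among those that differed: it was present at 242 and 152 bp in non-hair lists and 191 bp in INTACT tip replicate 1, and in no hair list. The nearest lists were hair replicate 1, at 576 bp, and non-hair replicate 2, at 646 bp. In non-hair replicate 2 the regions at this site and at chr5:16131300-16131633 measured 152 bp, the narrowest width of that list. The separation of MYB23 therefore depends on such narrow regions.

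The MYB23 gene body held a site of the opposite kind. At chr5:16128715-16129019, starting 990 bp inside the low-coordinate end, all 4 tip lists held a region, of 298 and 264 bp in INTACT tips and 150 and 140 bp in sucrose tips, and none of the epidermal lists did. This pattern is rare: 17 of 61830 sites (0.0275%) were in all 4 tip lists and in no epidermal list. The widths in sucrose tips equal the commonest width of each of those lists, which also marks the narrowest regions they hold. A site on the high-coordinate side, chr5:16130033-16130400, was in all 4 epidermal lists, at 322 and 296 bp in hair and 363 and 342 bp in non-hair, and at 191 bp in INTACT tip replicate 1.

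**Figure D3:**
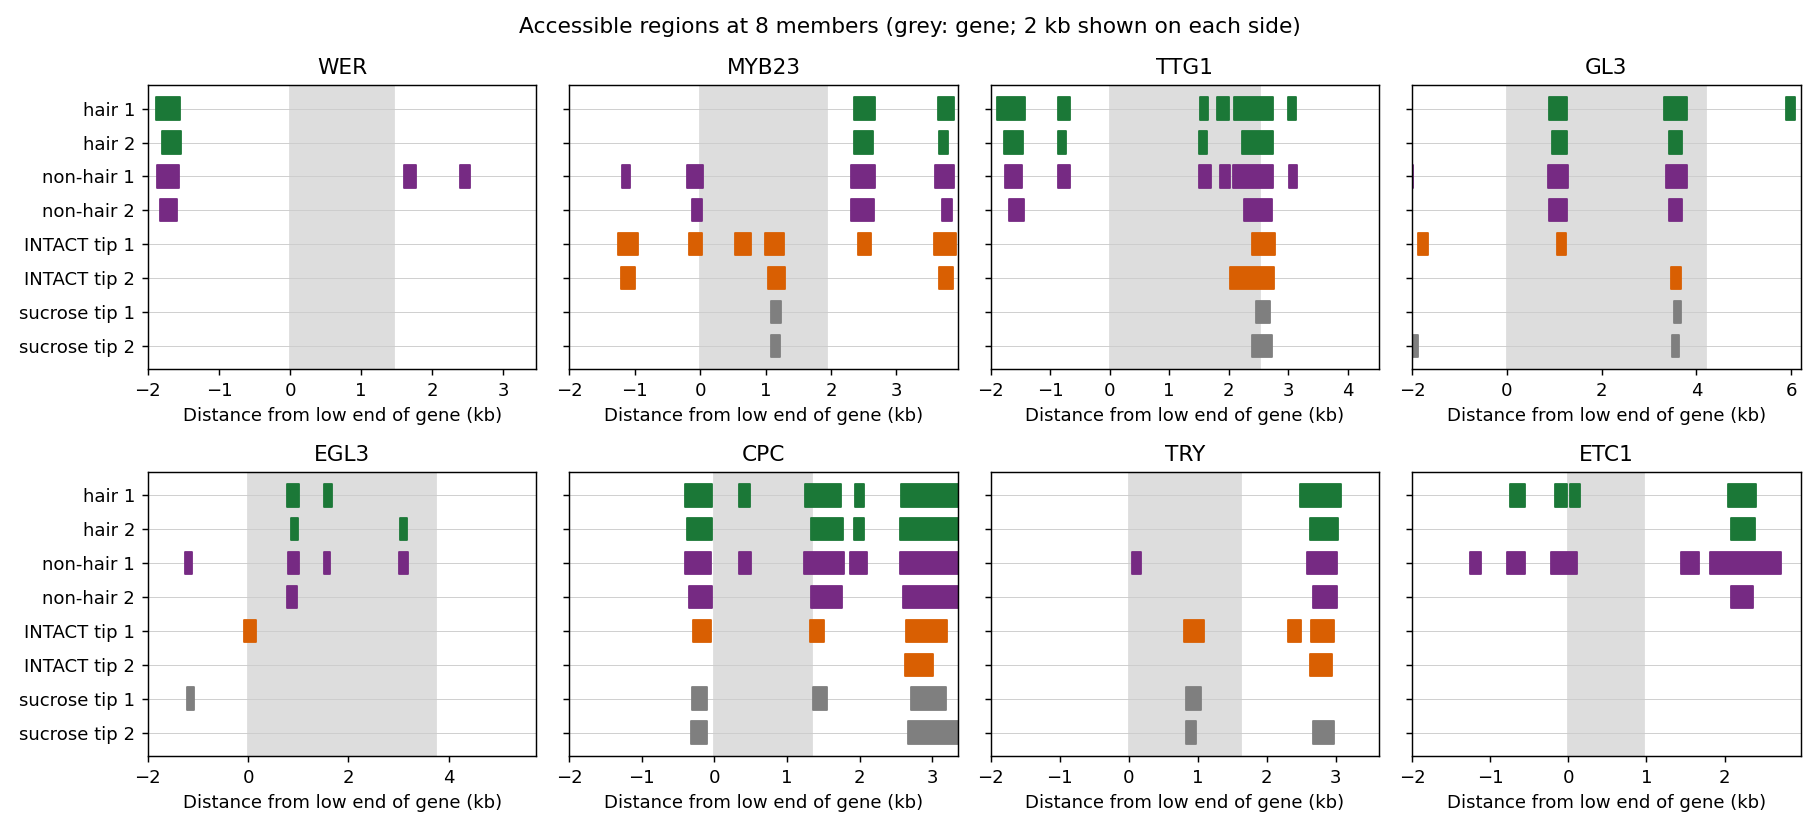
Regions at the other 8 genes in each list, drawn to scale against distance from the low-coordinate end of the gene (x axis, kb) with 2 kb on each side; grey marks the gene, and rows run from hair and non-hair to INTACT and sucrose tips. WER and ETC1 are empty in all tip rows, and MYB23 and TRY hold sites inside the gene in tip rows that no epidermal row has.

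The shared partners of the complex had regions in root tip as well as epidermis and did not separate hair from non-hair. TTG1, the WD40 protein, covered 1782 and 1101 bp in hair, 1660 and 718 bp in non-hair, 392 and 731 bp in INTACT tip and 229 and 327 bp in sucrose tip lists. Its site at the high-coordinate end of the gene, chr5:8372127-8373097, was in all 8 lists, as were 8389 of 61830 sites (13.6%). Across the 9 genes 2 of 45 sites had this pattern, the TTG1 site and one near CPC. The remaining TTG1 sites, including those that overlap neighbouring genes on the low-coordinate side, were in epidermal lists alone.

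GL3, one of the bHLH partners, covered 1068 and 598 bp in hair, 879 and 643 bp in non-hair, 382 and 211 bp in INTACT tip and 150 and 278 bp in sucrose tip lists. All 4 epidermal lists lay above all 4 tip lists, while hair and non-hair lists overlapped. Its constant sites were inside the gene: chr5:16529971-16530386, with 386 and 325 bp in hair, 416 and 366 bp in non-hair and 191 bp in INTACT tip replicate 1, and chr5:16532399-16532891, which was in all lists except INTACT tip replicate 1.

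EGL3, the other bHLH partner, had short covered lengths, with 391 and 284 bp in hair, 638 and 199 bp in non-hair, 238 and 0 bp in INTACT tip and 150 and 0 bp in sucrose tip lists. A single site, chr1:23600198-23600430, inside the gene, was in all 4 epidermal lists and in no tip list. The tip regions of EGL3 lay elsewhere: the INTACT region spanned the low-coordinate end of the gene and the sucrose region started at -1224 bp relative to it. No EGL3 position was therefore shared by tip lists.

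The single-repeat MYB inhibitors fell into different patterns. CPC had the highest tip coverage of the 9 genes in sucrose lists: 1932 and 1722 bp in hair, 2099 and 1498 bp in non-hair, 1003 and 386 bp in INTACT tip and 888 and 911 bp in sucrose tip lists. The epidermal lists all exceeded the tip lists, and hair lay within the span of non-hair. Its widest site, chr2:19051569-19052480, began 1200 bp beyond the high-coordinate end of the gene, was in all 8 lists and overlapped no other gene. In that site hair lists held 895 and 874 bp, non-hair lists 911 and 849 bp, INTACT tips 568 and 386 bp and sucrose tips 481 and 740 bp. A second CPC site ended 29 bp before the low-coordinate end (chr2:19048614-19048992) and was absent only from INTACT tip replicate 2.

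TRY covered 604 and 408 bp in hair, 560 and 350 bp in non-hair, 821 and 319 bp in INTACT tip and 213 and 455 bp in sucrose tip lists, and all groups overlapped. Apart from a region of 131 bp inside the gene in non-hair replicate 1, the epidermal regions fell in 1 site 682 bp beyond the high-coordinate end (chr5:21584925-21585695), with 604 and 408 bp in hair, 429 and 350 bp in non-hair, 527 and 319 bp in INTACT tips and 0 and 315 bp in sucrose tips. Inside the gene, chr5:21583411-21583704 was in 3 tip lists, at 294 and 0 bp in INTACT tips and 213 and 140 bp in sucrose tips, and in no epidermal list. Together with the MYB23 site it is one of 51 sites of 61830 (0.0825%) that were in at least 3 tip lists and in no epidermal list.

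ETC1 covered 843 and 305 bp in hair, 1822 and 287 bp in non-hair and 0 bp in every tip list. The hair values lay within the span of the non-hair values. All 4 epidermal lists shared 1 site, chr1:148861-149770, with 365 and 305 bp in hair and 910 and 287 bp in non-hair lists. It began 847 bp beyond the high-coordinate end of ETC1 and overlapped the neighbouring gene AT1G01390. The regions over the ETC1 gene end itself (chr1:146828-147192) were in hair replicate 1, at 285 bp, and non-hair replicate 1, at 324 bp, which are the longest lists.

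The direct comparison of hair with non-hair nuclei asks whether chromatin at the fate regulators differs between the cell types they specify. In both hair lists GL2 and MYB23 had less covered length than in both non-hair lists, and none of the 9 genes had more. Over all 25147 windows tested, 361 (1.44%) were lower in both hair lists in this way and 1067 (4.24%) were higher. limma called 0 of 25147 windows at an adjusted p under 0.05 (0%), and 83 had an unadjusted p under 0.05. That is a smaller share than the 0.05 of windows that would fall there if no window differed. The absence of calls therefore does not show that hair and non-hair lists are alike. The other 7 differences ran from -0.48 for ETC1 to 0.33 for TTG1 on the log2 scale, against a median of 0.056 over all windows, and each of the 7 changed sign when 1 of the hair or non-hair lists was left out. With 1 list left on a side, groups separate more easily: 3 of the 9 genes separated without hair replicate 1 (7922 of all windows), 5 without hair replicate 2 (11153), 8 without non-hair replicate 1 (17328) and 6 without non-hair replicate 2 (15328). The direction changed with the list left out. Without non-hair replicate 1, 6 of the 8 genes and 16882 windows were higher in hair, and without non-hair replicate 2, 0 of the 6 and 1185 windows. Without hair replicate 1, 0 of the 3 genes and 1163 windows were higher in hair, and without hair replicate 2, 3 of the 5 and 10740 windows. With 2 lists against 2, an exact permutation test cannot go below p = 0.333.

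**Figure D4:**
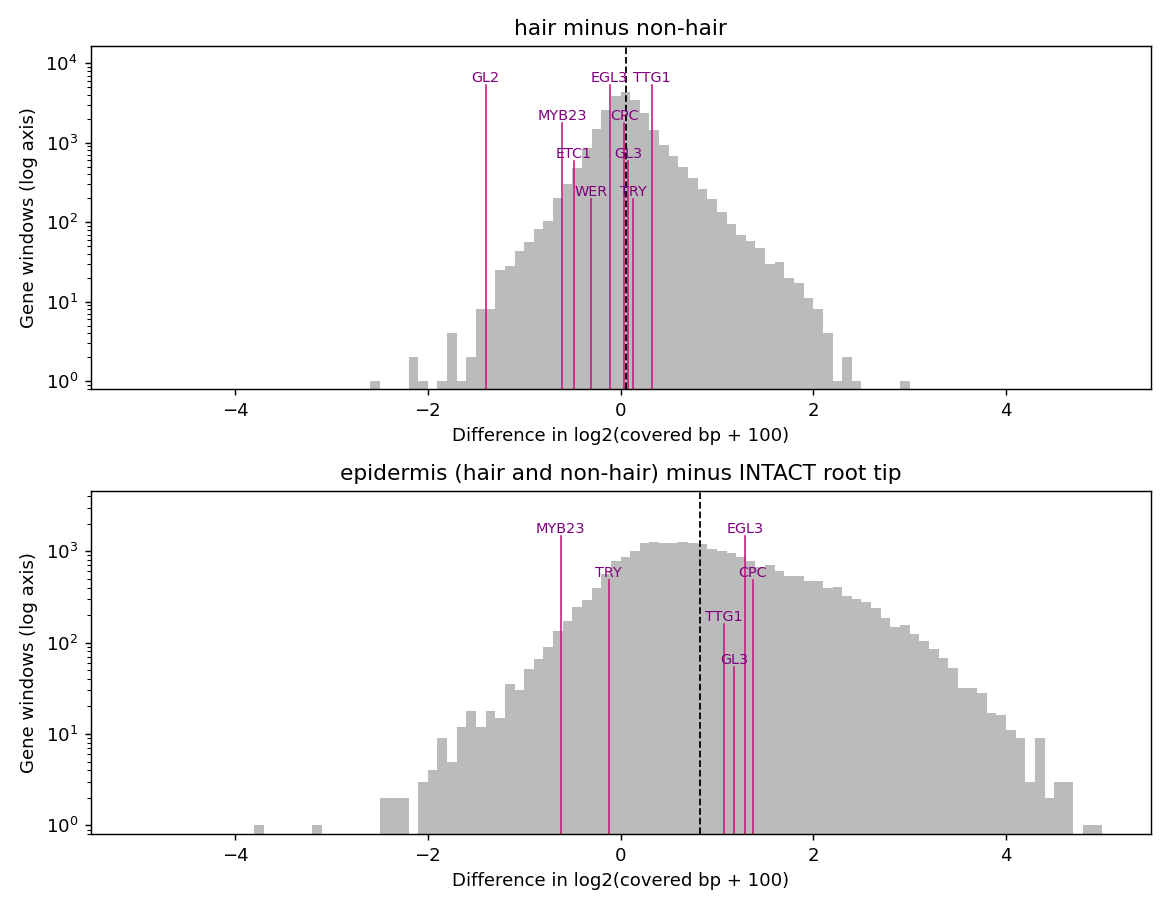
Number of gene windows (y axis, log scale) by difference in log2(covered bp + 100) (x axis), hair minus non-hair above and epidermis minus INTACT tip below; the dashed line is the median of all windows and labelled lines are the 9 genes, except that GL2, WER and ETC1, listed at 0 in all tips, are not drawn below. GL2 stands at -1.40 above, and MYB23 at -0.62 lies left of most windows below.

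The comparison of epidermal lists (hair and non-hair together) with INTACT root tips gave 4 calls among the 9 genes, all higher in the epidermis. In limma with Benjamini-Hochberg adjustment the adjusted p was 0.0117 for GL2, 0.0268 for WER and 0.0325 for ETC1, which were listed at 0 in both tip lists and have no fold. These 3 genes entered the test only through the epidermal lists in which they are high, so their calls are no independent support. Without the filter on empty windows the adjusted p in limma was 0.0058 for GL2 and 0.0246 for WER, while ETC1 (0.0822) and CPC (0.0823) lost their calls. CPC was higher by 1.38 on the log2 scale (SE 0.37, adjusted p = 0.0408, limma). Over all windows 3925 (15.6%) were called higher and 32 (0.127%) lower, and the median window was 0.822 higher, or 0.258 higher after covered length was scaled to equal list length. These calls depended on the lists kept: no call was left in any window without hair replicate 1 or without INTACT tip replicate 2. The CPC difference was then 1.34 and 0.78 on the log2 scale, and GL2, WER and ETC1 stayed at 0 in the tips. Leaving out a list also changes the spread shared by all groups and leaves 1 list in its group. The part of each in the lost calls was not tested.

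Other lists moved the counts too. Without hair replicate 2, 1532 windows and 1 of the 9 genes were called. Without non-hair replicate 1, 2215 windows and 3 of the 9 were called, and without INTACT tip replicate 1, 3871 windows and 2 of the 9. Without non-hair replicate 2, 5853 windows and 3 of the 9 were called. Leaving out sucrose tip replicate 1 or 2, which enter only through the shared spread, gave 1375 or 1372 windows and 1 of the 9 genes each. GL2 had no region in any tip list and entered the test through the epidermal lists. Its calls with a list left out are therefore no independent support either. CPC lost its call when covered length was scaled to equal list length (adjusted p = 0.214, limma).

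The other 5 genes did not pass the test. GL3 stood at 1.18 (SE 0.45, adjusted p = 0.106, limma), but its call depends on the window: it passed with 1 kb on each side (1.47, adjusted p = 0.0304, limma) and with 1 kb on the low and 2 kb on the high side (1.53, adjusted p = 0.0376). TTG1 stood at 1.07 (SE 0.45, adjusted p = 0.132, limma) and EGL3 at 1.30 (SE 0.69, adjusted p = 0.209), and like GL3 both lay above the median of 0.822. TRY stood at -0.12 (SE 0.50, adjusted p = 0.877, limma) and MYB23 at -0.62 (SE 0.44, adjusted p = 0.336), below all but 8% and 1.9% of windows. After scaling to equal list length the MYB23 difference was -1.22 (adjusted p = 0.0768, limma), so the gene remained on the side of the INTACT tips without passing. Without INTACT tip replicate 1 the unscaled difference was -0.08. Sucrose tips, at 150 and 140 bp, lay below all epidermal lists of MYB23.

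In covered length, GL2, WER, CPC, GL3 and ETC1 had all 4 epidermal lists above both INTACT tip lists, and the background for this was 44.1% (239 windows, 0.95%, had the reverse). The 5 of 9 genes are near that background. The same 5 genes had all 4 epidermal lists above all 4 tip lists, which held for 43.9% of windows. An exact two-sided permutation test over these 4 lists against 4 gave p = 0.0286 for each of them, the smallest it can give, 0.0571 for TTG1 and EGL3, 0.886 for TRY and 1 for MYB23, in 9 unadjusted tests. For the 5 genes this p follows from the separation just described and adds no support to it. Each side of the test also pools the lists of different groups, which are not replicates of 1 condition. With the tips by INTACT alone, 4 lists against 2, the smallest p is 0.0667. Root zone, cell type, transgene and, in part, purification change together in these comparisons and cannot be told apart.

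Between the tip preparations, INTACT against sucrose, limma called 0 of 25147 windows (0%) and none of the 9 genes, with 6280 windows at an unadjusted p under 0.05. In covered length 53.2% of windows were higher in both INTACT lists and 0.68% lower. Of the 9 genes TTG1 and MYB23 were higher in both INTACT lists, and GL2, WER and ETC1 were listed at 0 in both preparations. MYB23 covered 1563 and 686 bp in INTACT tips and 150 and 140 bp in sucrose tips, a difference of 2.22 on the log2 scale (SE 0.51, adjusted p = 0.0898, limma), against a median of 0.777 for all windows. It was called with a pseudocount of 10 bp in place of 100 bp (2.76, adjusted p = 0.0338, limma). With a pseudocount of 500 bp it stood at 1.28 (adjusted p = 0.237, limma), with windows of 1 kb on each side at 1.36 (0.215), after scaling at 1.46 (0.11) and with each list cut to its widest regions at 0.40 (0.938). TTG1 stood at 0.77 (SE 0.52, adjusted p = 0.391, limma), close to that median.

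The 146 regions at the 9 genes joined into 45 sites, of which 22 overlapped the gene itself, 10 lay on its low-coordinate side and 13 on its high-coordinate side, and 11 of the 45 overlapped another gene. Of these sites 6 (13.3%) were in all 4 epidermal lists and in no tip list, where 9.82% of all sites were: 2 near GL2 and 1 each at WER, TTG1, EGL3 and ETC1. A site in 1 list alone was found 13 times among the 45 (28.9%), near the 26.9% of all sites. No site was in both hair lists and in no other list, a pattern that only 347 of all 61830 sites (0.561%) had. Of the 146 regions 38 (26.0%) had the commonest width of their list, which is 127 bp at the narrowest and 211 bp at the widest, so such regions do not measure an extent.

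Other genes of the epidermal pathway and its relatives, 24 in all, gave a background of related genes, of which 19 were tested. None of the 24 had hair lists apart from non-hair lists, where 4.24% of all windows tested were higher and 1.44% lower in hair. Between hair and non-hair lists limma called none of the 19. Against INTACT tips 3 of 19 were called higher and 0 lower, a share close to the 15.6% of all windows called higher. They were HDG11 and HDG2, HD-ZIP IV relatives of GL2, and WRKY75, a transcription factor that limits root hair formation. HDG11 covered 708 and 482 bp in hair, 506 and 380 bp in non-hair and 0 bp in all tip lists. HDG2 covered 848 and 686 bp in hair, 768 and 494 bp in non-hair, 0 bp in both INTACT tip and 150 and 0 bp in sucrose tip lists. WRKY75 covered 1767 and 1367 bp in hair, 2128 and 1158 bp in non-hair and 0 and 6 bp in INTACT tip lists. Like GL2, these 3 genes reached the minimum of 2 lists through the epidermal lists in which they are high. RHD6, a bHLH factor that starts hair development, overlapped between groups, with 644 and 402 bp in hair, 536 and 594 bp in non-hair, 1037 and 447 bp in INTACT tip and 424 and 422 bp in sucrose tip lists. The median difference of the 19 was 0.093 for hair minus non-hair and 0.913 for epidermis minus INTACT tip, beside 0.056 and 0.822 over all windows; HDG11, HDG2, WRKY75 and RHD6 were named after their values were seen.

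The labelled cell types were checked against markers. Of 6 hair cell markers, ADF8, whose promoter drives the tag, was the only one with both hair lists above both non-hair lists. Over all windows tested 4.24% were higher in this way. The other non-hair marker beside GL2, TTG2, had 1070 and 625 bp in hair and 1405 and 606 bp in non-hair lists, which overlap. The summed covered length of 7 genes that mark other root cell types (SCR, SHR, CASP1, WOX5, APL, VND7 and PLT1) was 7546 and 4255 bp in hair, 9761 and 2631 bp in non-hair, 3556 and 2806 bp in INTACT tip and 600 and 936 bp in sucrose tip lists, and APL was listed at 0 in all 8. WOX5 alone of these had both hair lists below both non-hair lists, as had 1.44% of all windows tested. The part of other cell types in the results above was not tested.

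Windows whose covered length followed that of GL2 most closely over the 8 lists were AT2G15770 (Pearson's r = 0.998 on the log2 scale), LCR63 (r = 0.998) and LCR59 (r = 0.998), genes that share no base with the GL2 window. All have 0 bp in the 4 tip lists, and LCR63 held 225 and 217 bp in hair and 591 and 380 bp in non-hair lists. The neighbouring LCR59 held the same hair values. The likeness is weakly selective, since 3611 windows (14.4%) had r above 0.9, and the points share the lists' lengths.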

How the data were processed

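The deposited files used here are 8 Arabidopsis region lists with start and end positions in base pairs and no score, signal or depth. Bowtie2, HOMER and the build TAIR10 are named in the submitters' processing notes without versions; aligner settings and read filters are not given in the sources used here. The names of the deposited lists carry the HOMER region mode and a setting of 150. Genes came from a table of the assembly TAIR10.1, taken as matching TAIR10 on the nuclear chromosomes; gene ends were covered in 34.72% of cases in hair replicate 1, against 16.71% at 10000 bp away. The table has no strand, so windows hold 2 kb on both sides in place of 2 kb before and 1 kb after the gene.

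Covered base pairs per window were compared on log2(bp + 100) with limma 3.58.1 in R 4.3.3 (trend, 4 groups of 2 lists, two-sided, Benjamini-Hochberg over the 25147 windows with a region in at least 2 lists; 2297 were not tested). Lists were called not overlapping where each list of one side exceeded each of the other. Sites were regions of the 8 lists joined where they shared 1 bp. Intervals and exact tests used SciPy 1.17.1, pandas 2.3.3 and NumPy 2.4.6 under Python 3.11.15, figures used Matplotlib 3.10.9, and the scripts were tested on simulated data. The members and lists were chosen with earlier results of these data known. Named genes were all 9 members and the 3 windows most like GL2; the rule also took pathway genes whose hair and non-hair lists did not overlap, of which there were none, and pathway genes named in the text were picked after their values were seen. Replicate numbers were not used to pair the lists in the main fit. The same-number correlations between groups ran from -0.241 to 0.419. The highest was between hair and non-hair lists, and the next was 0.114. Replicate 1 was the longer list in both of these groups, so replicate number and list length go together there. No sequence is printed, and motifs were not searched, since no sequence was used here. The lists of other species and the genomic DNA sample were not analysed here.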

Additional observations from a re-analysis of the deposited data

How the results depend on the processing

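Of 381 alternative values for single genes, 306 kept their direction and side of the threshold or stayed within the spread, 47 moved, 24 lost a call, 3 gained one and 1 reversed: TTG1, INTACT minus sucrose tips, at -0.163 after scaling to equal list length. Signs changed in 32 of them, 20 for hair minus non-hair. GL2, WER and ETC1 were listed at 0 in all tip lists, so their INTACT minus sucrose values were fixed at 0. Some of these were counted as moved and the others as kept, which says nothing about robustness. For hair minus non-hair, limma called 15 windows without the filter on empty windows, and lists did not overlap in 2739 windows with equal numbers of the widest regions, 6024 after scaling (4 members) and 7922 to 17328 with a list left out (3 to 8 members). For epidermis minus INTACT tip, limma called 2316 windows without the filter (2 members), 2005 with the widest regions (2 members), 15884 with both tip preparations together (6 members), and 0 to 5853 with a list left out (0 to 3 members). With windows added after seeing the files, 2 members were called with 1 kb on each side (GL2 and, newly, GL3) and 2 with 2 kb on the low and 1 kb on the high side (GL2 and WER). Lists did not overlap in 6014 windows with the widest regions (2 members), against 11319. With 1 kb on each side they did not in 10417 windows (3 members) and with a list left out in 11445 to 16370 (5 to 8 members). For INTACT minus sucrose, limma called 1904 windows with a pseudocount of 10 bp (1 member), 9 without the filter, 448 with the widest regions and 1161 after scaling. Lists did not overlap in 8366 windows with the widest regions (4 members) and 8765 after scaling, against 13555, and in 14438 to 18797 with a list left out (2 to 6 members). The cause was not tested.

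The shared WER site lies 1540 bp from the gene, so WER was not tested with 1 kb on that side, nor with the widest regions. ETC1 lost its call with 1 kb on the high side (adjusted p = 0.317 and 0.326, limma). With the replicate block, which rests on shared numbers alone, 4482 windows were called for epidermis minus INTACT tip and 0 for the other comparisons, and the same number of members, 4, was called. The promoter window alone was not run, since the gene table has no strand. Depth is unknown and limits every absence of a region.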
